A study of Mus musculus with 18 samples.

Results

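The Toll-like receptors are germline-encoded sensors of microbial molecules. Their transcripts were measured by RNA-seq in 3 adipose depots of diet-induced obese mice that carried or lacked caspase-6. The 10 genes described here, Tlr1, Tlr2, Tlr3, Tlr4, Tlr5, Tlr6, Tlr7, Tlr8, Tlr9 and Tlr13, were taken by symbol from a table of 25124 genes per depot, and all 10 were found in each table. Libraries came from 2 white depots of male C57BL/6J mice, the inguinal (iWAT) and the epididymal (eWAT), and from brown fat (BAT). Wildtype (WT) mice were compared with whole-body caspase-6 knockout (C6KO) mice, which came from crosses of heterozygous parents. Mice of both genotypes had received a 60% high fat diet (HFD) for 12 weeks, begun in young adulthood, and no library came from mice on another diet. Each genotype had 3 libraries in each depot, 18 altogether. The labels call them biological replicates without saying whether the depots came from the same animals.

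Toll-like receptors bind microbial lipids, proteins or nucleic acids through an ectodomain of leucine-rich repeats, and signal through a cytoplasmic TIR domain. The adaptors Myd88 and Ticam1 (TRIF) pass the signal to kinases, which activate NF-kappaB and interferon regulatory factors and induce cytokines. Tlr1, Tlr2, Tlr4, Tlr5 and Tlr6 work mainly at the cell surface, and Tlr3, Tlr7, Tlr8, Tlr9 and Tlr13 in endosomes. In adipose tissue, macrophages and other myeloid cells carry most of the family, while Tlr4 and Tlr3 are also made by adipocytes and their progenitors.

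In the mm10 annotation of the tables, Tlr1 (chr5:64924680-64933558, minus strand) and Tlr6 (chr5:64953106-64960048, minus) are neighbors separated by 19.5 kb. Tlr8 (chrX:167241123-167264329, minus) and Tlr7 (chrX:167304926-167330571, minus) lie 40.6 kb apart, and Tlr13 (chrX:106143275-106160493, plus) is also X-linked. The others map to chr3:83836272-83841608 (Tlr2, minus), chr4:66827551-66846581 (Tlr4, plus), chr1:182954788-182976044 (Tlr5, plus), chr8:45395665-45410619 (Tlr3, minus) and chr9:106222598-106226876 (Tlr9, plus). Values are counts over the exons of each gene. Tlr1 and Tlr6 are close paralogs: 15.3% of the 50-base windows of the Tlr1 transcript also occur in the Tlr6 transcript and 12.5% the other way round, so reads of the shared stretch cannot be assigned with certainty. An antisense gene, Gm45542, overlaps Tlr3, and whether the counting used strand is not given in the sources used here.

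RefSeq promoters (GRCm38.p6) were found for 8 of the 10 genes. Those of Tlr1 and Tlr13 are shown because these transcripts passed the edgeR test in BAT. That of Tlr8 is shown because it is a highly counted receptor of the same kind of profile, and that of Tlr5 for contrast. Neither Tlr8 nor Tlr5 passed that test. Each is the stretch before the annotated start, up to the nearest annotated exon, 5′ to 3′ on the strand of the gene. Capitals mark the letters GAGGAA, the core bound by the myeloid factor PU.1 and other ETS factors, and GAAANNGAA, a repeat of the kind bound by interferon regulatory factors, on either strand.

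Tlr1 (chr5:64933564-64933808, minus): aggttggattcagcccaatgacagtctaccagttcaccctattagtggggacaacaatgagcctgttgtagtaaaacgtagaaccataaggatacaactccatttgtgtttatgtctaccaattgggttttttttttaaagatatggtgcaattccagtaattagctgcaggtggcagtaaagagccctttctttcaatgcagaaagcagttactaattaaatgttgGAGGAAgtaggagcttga

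Tlr13 (chrX:106143025-106143203, plus): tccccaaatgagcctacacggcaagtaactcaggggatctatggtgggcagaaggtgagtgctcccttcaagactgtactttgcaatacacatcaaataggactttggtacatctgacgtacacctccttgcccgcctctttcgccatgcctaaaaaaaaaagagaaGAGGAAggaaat

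Tlr8 (chrX:167264330-167264579, minus): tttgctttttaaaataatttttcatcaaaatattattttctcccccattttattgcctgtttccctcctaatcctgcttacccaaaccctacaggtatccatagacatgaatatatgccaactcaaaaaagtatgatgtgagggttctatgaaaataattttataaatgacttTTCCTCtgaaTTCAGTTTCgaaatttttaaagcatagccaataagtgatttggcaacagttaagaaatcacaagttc

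Tlr5 (chr1:182954538-182954787, plus): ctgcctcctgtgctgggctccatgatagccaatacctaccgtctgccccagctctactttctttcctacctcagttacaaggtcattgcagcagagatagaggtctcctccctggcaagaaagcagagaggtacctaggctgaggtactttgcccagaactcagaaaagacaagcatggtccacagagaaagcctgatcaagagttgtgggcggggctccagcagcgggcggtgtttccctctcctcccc

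The PU.1 and ETS core stood in the 250 bases before the start of 4 of the 10 annotated starts of these 8 genes, namely those of Tlr8, Tlr9 and Tlr13 and 1 of the 2 of Tlr1, and in 23.3% of 32841 promoters of the same length. In Tlr1 it began 23 bases before the start, in Tlr13 83 bases and in Tlr8 77 bases. It was absent before Tlr2, Tlr3 and Tlr5, before each start of Tlr6 and before the other start of Tlr1. Of these, Tlr2 was called lower by DESeq2 in iWAT and BAT. The interferon regulatory repeat was found before Tlr8 and before 1 of 2 annotated starts of Tlr6, where 2 matches overlapped, and in 7.13% of all promoters. Such matches describe the letters of these windows and were not tested as sites.

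Library depth ranged from 16506034 to 19043523 counts in iWAT, from 16717201 to 19139694 in eWAT and from 7803108 to 12428683 in BAT, so BAT rested on the fewest counts. Casp6 counts did not overlap between genotypes in any depot, being lower with the knockout by log2 fold changes of -1.51 (iWAT), -1.85 (eWAT) and -1.50 (BAT), at edgeR adjusted p = 0.0751, 0.0132 and 0.0671. Reads over Casp6 remained in all C6KO libraries, at 26 to 141 counts. The adipocyte markers Adipoq, Plin1, Cidec and Lipe were abundant in all 18 libraries. Ucp1, the uncoupling protein of brown adipocytes, had 41691 to 78691 counts in BAT and 3 to 102 counts in the white depots. Several libraries stood apart. In iWAT, C6KO-3 carried 1048 CPM (counts scaled to library size) of 8 summed macrophage markers against 369 and 376 in C6KO-1 and C6KO-2 and 1378 to 1526 in WT. In BAT, WT-2 held 16457 CPM of 4 skeletal muscle markers, against 22.7 to 2547 in the other BAT libraries, and 65.2 CPM of B cell markers against at most 3.43. In eWAT, B cell markers were highest in WT-3 (130 CPM) and C6KO-3 (185 CPM), and T cell markers in WT-2 (55.8 CPM).

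The order of the receptors differed between depots in WT mice. On the scale of CPM per kilobase of exon, which allows genes to be compared, Tlr13, a sensor of bacterial ribosomal RNA, ranked highest in eWAT (48.4 ± 1.39, SD, n = 3). It was followed there by Tlr8 (37.3 ± 5.24) and Tlr1, a partner of Tlr2 in lipopeptide binding (20.1 ± 3.67). Each of these was separated from the next by all libraries except that Tlr1 overlapped with Tlr7 (17.4 ± 3.80). Below them Tlr4 (13.1 ± 1.33) overlapped with Tlr7 and with Tlr2 (12.5 ± 3.92), Tlr9 (6.49 ± 3.86) with Tlr3 (6.43 ± 1.31), and Tlr5 was lowest (1.84 ± 0.101). Tlr13 (10.6 ± 1.78) and Tlr8 (9.27 ± 1.38) also had the highest means in iWAT, with overlapping libraries. The lipopolysaccharide receptor Tlr4 (7.72 ± 0.860) and the duplex RNA receptor Tlr3 (7.30 ± 0.384) came next and overlapped each other. Tlr8 (7.86 to 10.6) overlapped with Tlr4 (6.77 to 8.44) too. In BAT, Tlr4 came first (5.09 ± 0.382) and Tlr3 next (4.42 ± 0.082), followed by Tlr13 (3.35 ± 0.804), and the flagellin receptor Tlr5 (2.95 ± 0.705), Tlr2 (2.84 ± 0.426), Tlr7 (2.77 ± 0.563), Tlr8 (2.68 ± 0.870) and Tlr1 (2.27 ± 0.352) followed within their SDs. Summed over the 10 receptors, WT libraries ranged from 154 to 196 CPM per kilobase in eWAT, from 50.1 to 59.1 in iWAT and from 25.8 to 30.4 in BAT.

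**Figure D1:**
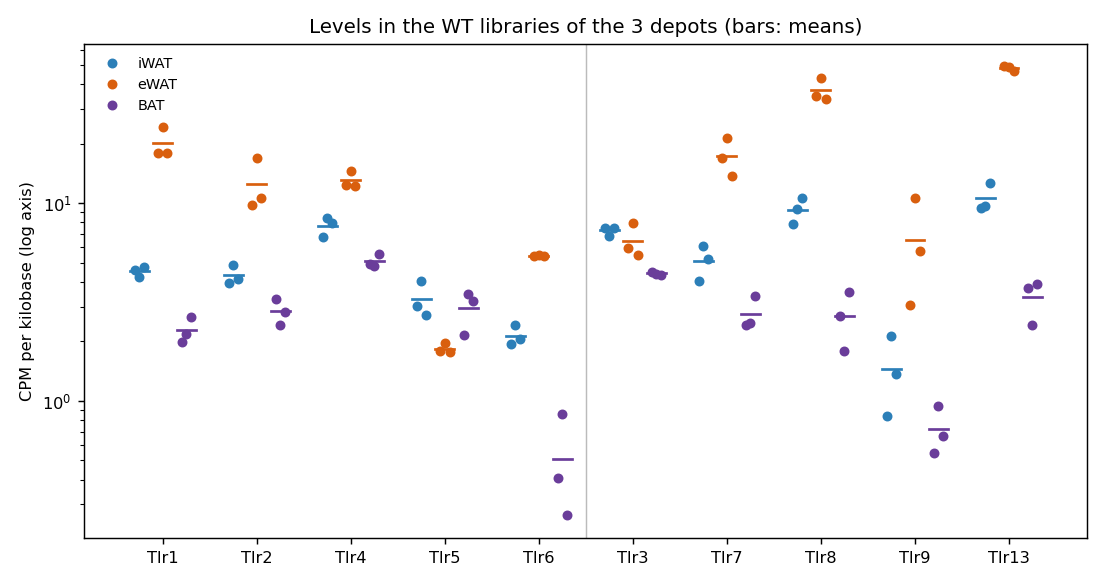
CPM per kilobase of exon (log axis) of the 10 receptors in the WT libraries of iWAT (blue), eWAT (orange) and BAT (purple), each point 1 library and each bar the mean of 3, with cell surface receptors left and endosomal receptors right of the gray line. The eWAT points lie above those of the other depots for 8 receptors, whereas those of Tlr5 lie below and those of Tlr3 among them.

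Between depots in WT mice, a call required an edgeR adjusted p under 0.05 together with a 1.5-fold difference. From iWAT to eWAT, 9 of 10 receptors were called, beside 25.7% of all 15866 genes tested. Of these, 8 rose, from Tlr4 (log2 fold change 0.76 ± 0.12, SE) to Tlr13 (2.19 ± 0.53), and Tlr5 fell (-0.83 ± 0.24), while Tlr3 did not pass (-0.18, 95% confidence interval -0.47 to 0.11). For BAT against iWAT, 6 of 10 were called, all lower, beside 38.7% of all genes. They were Tlr6 (-2.08), Tlr8 (-1.80), Tlr13 (-1.67), Tlr7 (-0.86), Tlr3 (-0.72) and Tlr4 (-0.60). Without BAT WT-2, the library with the muscle transcripts, 3 of these calls remained (Tlr3, Tlr6 and Tlr8). The call of Tlr4 also ended without iWAT WT-2, iWAT WT-3 or BAT WT-1, that of Tlr7 without iWAT WT-2 or BAT WT-1, and that of Tlr13 without iWAT WT-3. In the fits where it ended, Tlr4 gave -0.58 to -0.54 at adjusted p of 0.0042 to 0.00704, so only the fold threshold was missed. Tlr7 gave -0.78 to -0.72 and Tlr13 -1.53 to -1.48 in theirs. For BAT against eWAT, 9 of 10 were called beside 48.6% of all genes. Tlr5 rose (0.68 ± 0.24) and the other 8 fell, most for Tlr13 (-3.86 ± 0.58) and Tlr8 (-3.80 ± 0.47), whereas Tlr3 was lower by less than the fold threshold (-0.54, adjusted p = 0.00338), and it was called without eWAT WT-1 or eWAT WT-3. The call of Tlr5 was lost without any 1 of eWAT WT-1, eWAT WT-3, BAT WT-2 or BAT WT-3 (adjusted p = 0.0596, 0.0628, 0.0932 and 0.0685), and with scaling by total counts (0.40, adjusted p = 0.172). In the comparison of eWAT with iWAT, Tlr5 was no longer called without iWAT WT-2 (adjusted p = 0.0763), nor Tlr9, the receptor of CpG DNA, without iWAT WT-1 (0.0547) or eWAT WT-2 (0.067). The tables list different transcripts for Tlr6 (2599 bases in iWAT, 2510 in eWAT and BAT) and Tlr7 (3869 and 3936 bases), so their values between iWAT and the other depots are not strictly comparable.

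The comparison of C6KO with WT was made within each depot. In iWAT, the estimate was below 0 for 9 of 10 receptors, and for 7 of them no C6KO library reached the lowest WT library, beside 12.2% of all 14533 genes tested. None was called by edgeR, beside 0.0275% of all genes, although 8 of 10 had an unadjusted p under 0.05 with a lower value, beside 9.29% of all genes. By DESeq2, 3 were called lower (Tlr1, Tlr2 and Tlr7), beside 4.72% of all genes. The median log2 fold change over the receptors was -1.47, and that of all genes was 0.03.

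At the cell surface, Tlr1 read 13.8, 12.6 and 14.3 CPM in the iWAT WT libraries and 4.26, 0.874 and 7.98 CPM in C6KO-1, C6KO-2 and C6KO-3. The groups did not overlap, and the spread was wide among the C6KO libraries (log2 fold change -1.63 ± 0.63, SE, edgeR adjusted p = 0.269). Tlr2, the common partner of Tlr1 and Tlr6, read 11.2, 13.7 and 11.7 CPM against 4.09, 3.82 and 6.74 CPM (-1.32 ± 0.26, adjusted p = 0.145). Tlr6 averaged 5.50 CPM in WT and 2.32 CPM in C6KO libraries, and Tlr5 10.3 and 6.52 CPM, both without overlap and with adjusted p of 0.197 and 0.236. Tlr4 went another way: it read 53.0, 65.6 and 62.3 CPM in WT and 64.4, 59.5 and 59.4 CPM in C6KO libraries, so the groups overlapped throughout. Its log2 difference of 0.02 had a 95% confidence interval of -0.25 to 0.29, and turned to -0.05 under scaling by total counts.

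Among the endosomal receptors of iWAT, the libraries of C6KO mice fell into unequal levels. Tlr8 read 39.3, 46.5 and 53.1 CPM in WT libraries, and 5.94, 7.76 and 27.5 CPM in C6KO-1, C6KO-2 and C6KO-3 (log2 fold change -1.75 ± 0.56, adjusted p = 0.220). Tlr13 read 37.9, 38.3 and 50.4 CPM against 5.04, 3.61 and 28.0 CPM (-1.79 ± 0.74, adjusted p = 0.295). For both, the groups did not overlap and C6KO-3 lay nearer to WT than to the other C6KO libraries. Tlr7, which senses single-stranded RNA, read 15.6, 23.3 and 20.0 CPM against 4.26, 4.31 and 9.80 CPM (-1.68 ± 0.34, adjusted p = 0.153). Tlr9 had 49, 124 and 85 counts in WT and 11, 15 and 60 counts in C6KO libraries, which overlapped. Tlr3 did not separate the genotypes, at 31.8 ± 1.78 CPM in WT and 30.1 ± 3.13 CPM in C6KO mice (SD, n = 3).

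C6KO-3 carried the highest C6KO value of 9 of the 10 receptors in iWAT, and this same library carried the macrophage markers closest to WT. Without it, 7 receptors were called lower, beside 8.64% of all 14798 genes then tested: Tlr1 (log2 fold change -2.42), Tlr2 (-1.64), Tlr6 (-1.72), Tlr7 (-2.22), Tlr8 (-2.78), Tlr9 (-2.80) and Tlr13 (-3.31). Their adjusted p ranged from 0.000137 to 0.0379. These calls rest on leaving out the library with the highest C6KO values of these receptors, which by itself lowers their C6KO level. They are therefore no independent result. Tlr5 (-0.79, adjusted p = 0.113), Tlr3 (-0.19, adjusted p = 0.407) and Tlr4 (0.02, adjusted p = 0.958) did not pass. Leaving out any other iWAT library gave no call among the receptors, where only 3 of all genes were called lower.

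**Figure D2:**
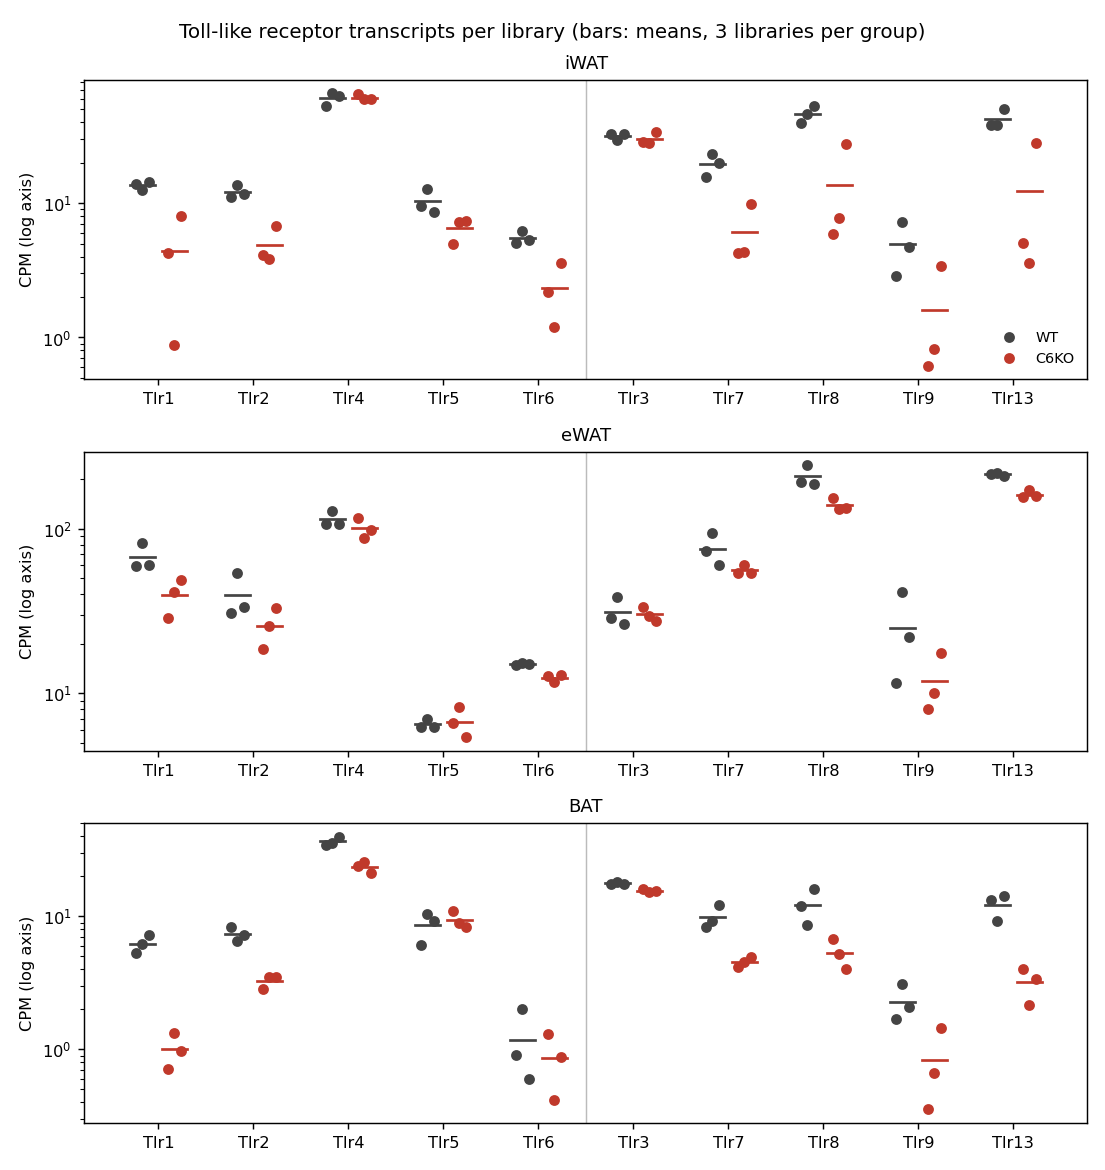
CPM (log axis) of the 10 receptors in each library of iWAT, eWAT and BAT, with WT in dark gray and C6KO in red, 1 point per library in the order of the replicate numbers and bars at the means. Cell surface receptors stand left of the gray line and endosomal receptors right of it. In iWAT the third red point of Tlr8 and Tlr13 lies far above the other red points, and in BAT the red points of Tlr1 lie between 0.710 and 1.32 CPM, all below the WT points. Tlr6 in BAT is drawn although its counts were below the filter.

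In eWAT, the depot with the highest receptor levels, the differences were smaller. An estimate below 0 was found for 9 of 10 receptors, with a median of -0.42 beside -0.01 for all genes, and the genotypes did not overlap for 4 (Tlr1, Tlr6, Tlr8 and Tlr13), beside 11.2% of all 14889 genes. None was called by edgeR, beside 0.746% of all genes. An unadjusted p under 0.05 with a lower value was found for 4 receptors, beside 7.82% of all genes, and DESeq2 called 1 lower (Tlr1), beside 3.99%. Leaving out any library gave no call, where 2 to 93 of all genes were called lower.

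Tlr8 read 192, 243 and 187 CPM in the eWAT WT libraries and 153, 132 and 133 CPM in the C6KO libraries, without overlap (log2 fold change -0.57 ± 0.13, edgeR adjusted p = 0.0632). Tlr13 read 216, 218 and 207 CPM against 155, 170 and 157 CPM, also without overlap (-0.41 ± 0.10, adjusted p = 0.0666). These 2 receptors came nearest to the threshold, and their estimates were below the fold that a call required. By DESeq2 their adjusted p was 0.0035 and 0.0056, so there only the fold threshold was missed (-0.57 and -0.40). Tlr1 read 59.0, 81.5 and 60.0 CPM against 28.8, 41.4 and 48.8 CPM (-0.75 ± 0.21, adjusted p = 0.112). Tlr7 averaged 75.5 ± 16.9 CPM in WT and 55.9 ± 3.68 CPM in C6KO libraries, which overlapped at 60.0 CPM in WT-3 and 60.1 CPM in C6KO-2. Tlr9 spread widely, with 196, 752 and 377 counts in WT and 134, 187 and 301 counts in C6KO libraries (-1.07 ± 0.54, adjusted p = 0.394). Its highest value was that of WT-2, the library with the highest T cell markers. For Tlr4, Tlr5 and Tlr3 the confidence intervals reached 0, at -0.47 to 0.11, -0.42 to 0.54 and -0.40 to 0.31. So did those of Tlr2 (-0.61, interval -1.26 to 0.03), Tlr6 (-0.27, interval -0.57 to 0.04) and Tlr9 (-2.42 to 0.28).

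BAT was the depot in which receptors passed the edgeR test. Tlr1 fell from 41, 70 and 73 counts in WT to 6, 16 and 10 counts in C6KO libraries. This was 5.30, 6.17 and 7.30 CPM against 0.710, 1.32 and 0.973 CPM, so the lowest WT library held more than all C6KO libraries together. Its log2 fold change was -2.61 ± 0.36 (SE, edgeR adjusted p = 0.0124). Tlr13 fell from 102, 104 and 142 to 34, 26 and 35 counts, or from 12.2 ± 2.66 to 3.19 ± 0.952 CPM (SD, n = 3). The Tlr13 groups did not overlap either (-1.94 ± 0.31, SE, adjusted p = 0.0242). Thus 2 of 9 receptors tested were called, both lower, beside 1.24% of all 13595 genes, and DESeq2 called 5 lower (Tlr1, Tlr2, Tlr7, Tlr8 and Tlr13), beside 3.67%. An unadjusted p under 0.05 with a lower value was found for 7 of 9, beside 8.64% of all genes. For 8 of 9, all but Tlr5, the genotypes did not overlap and C6KO was lower, beside 12.1% of all genes, and the median log2 fold change was -1.16, beside -0.03 for all genes.

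Both BAT calls were lost in several fits with 1 library left out, where calls over all genes fell as well. Genes called lower numbered 145 with all libraries and 145 without WT-2. They numbered 72 without WT-1, 77 without WT-3, and 35, 27 and 24 without C6KO-1, C6KO-2 and C6KO-3. Tlr1 kept its call without WT-1 or WT-2, and lost it without WT-3 (adjusted p = 0.0552), C6KO-1 (0.0666), C6KO-2 (0.0589) or C6KO-3 (0.0803). Tlr13 kept it without WT-2 and lost it without WT-1 (0.0747), WT-3 (0.0817), C6KO-1 (0.0683), C6KO-2 (0.111) or C6KO-3 (0.104), and in 1 fit of all 18 libraries (0.105). The estimates stayed between -2.84 and -2.40 for Tlr1 and between -2.11 and -1.69 for Tlr13. The library with muscle and B cell transcripts, WT-2, did not carry either result.

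The other BAT receptors had fewer than 500 counts in each library. Tlr2 read 8.27, 6.52 and 7.30 CPM in WT and 2.84, 3.48 and 3.50 CPM in C6KO libraries (log2 fold change -1.16 ± 0.27, adjusted p = 0.0870). Tlr7 averaged 9.92 and 4.55 CPM (-1.12 ± 0.25, adjusted p = 0.0761) and Tlr8 12.3 and 5.32 CPM (-1.21 ± 0.31, adjusted p = 0.110), each without overlap. Tlr4 had 266, 407 and 396 counts in WT and 202, 308 and 219 counts in C6KO libraries, or 34.4, 35.9 and 39.6 CPM against 23.9, 25.5 and 21.3 CPM. The Tlr4 groups did not overlap once scaled to depth (-0.64 ± 0.15, adjusted p = 0.0955). Tlr9, with 13, 35 and 21 against 3, 8 and 15 counts, was too sparse for a narrow estimate (-1.45, 95% confidence interval -2.69 to -0.22, adjusted p = 0.292). Tlr3 (-0.19, adjusted p = 0.690) and Tlr5 (0.12, adjusted p = 0.881) did not pass, and Tlr6, with 5 to 23 counts per library, was below the filter on low counts.

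**Figure D3:**
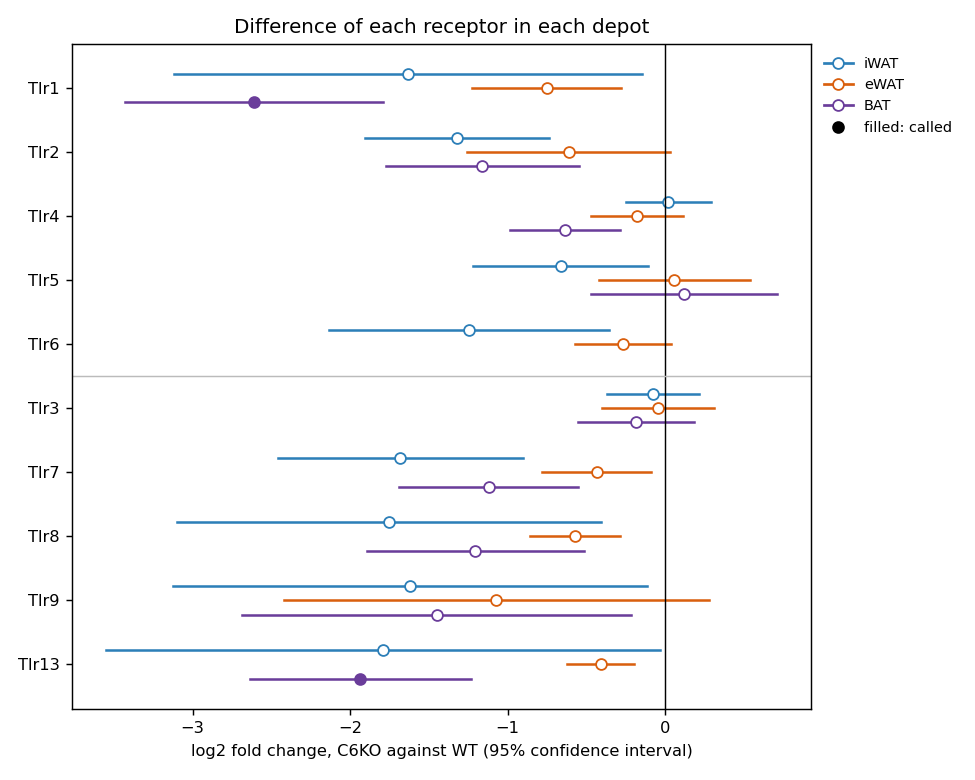
Log2 fold change of C6KO against WT for each receptor in iWAT (blue), eWAT (orange) and BAT (purple), with 95% confidence intervals from edgeR. Filled points were called (Tlr1 at -2.61 and Tlr13 at -1.94, both in BAT), and the intervals of Tlr3 cross 0 in all 3 depots.

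Whether the genotype effect differed between depots was tested as an interaction over all 18 libraries. No receptor was called by edgeR in any of the 3 contrasts, beside 0% of all genes for eWAT against iWAT, 0.183% for BAT against iWAT and 0.536% for BAT against eWAT. An unadjusted p under 0.05 was found for 2 receptors in each contrast, beside 5.48%, 9.93% and 11.2% of all genes. The effect on Tlr4 was estimated lower in BAT than in iWAT (-0.66 ± 0.18 on the log2 scale, edgeR adjusted p = 0.205). Tlr4 was the single receptor DESeq2 called in these contrasts (adjusted p = 0.0495), beside 1.31% of all genes. Against eWAT, the Tlr4 effect in BAT was -0.46 ± 0.18 (adjusted p = 0.320). For Tlr7, the effect was estimated weaker in eWAT than in iWAT, without passing (difference 1.25 ± 0.37, adjusted p = 0.890). Within depots, Tlr5 was estimated lower with the knockout only for iWAT (-0.66), with eWAT at 0.06 and BAT at 0.12. Relative to iWAT, its estimate was shifted upward by 0.72 ± 0.34 for eWAT (adjusted p = 0.902), without passing. The shift for BAT was 0.78 ± 0.34 (adjusted p = 0.452), which did not pass either. For Tlr1, the effect was estimated stronger in BAT than in eWAT, without passing (difference -1.86 ± 0.72, adjusted p = 0.335). Without iWAT C6KO-3, Tlr7 (1.77), Tlr8 (2.19) and Tlr13 (2.88) differed between eWAT and iWAT (adjusted p = 0.00212, 0.00123 and 0.000147), beside 1.49% of all genes. Tlr8 (1.54) then differed between BAT and iWAT (adjusted p = 0.0473), beside 0.695% of all genes. These calls too rest on leaving out the library with the highest iWAT C6KO values of these receptors, so they are no independent result.

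In these bulk samples, fewer cells that carry a receptor and less RNA per cell cannot be told apart. The summed level of 8 macrophage markers did not overlap between genotypes in any depot. It was 1378 to 1526 CPM in WT and 369 to 1048 CPM in C6KO libraries of iWAT, 5002 to 6084 and 3373 to 4160 CPM in eWAT, and 532 to 630 and 210 to 300 CPM in BAT. No marker was at 0 in any depot. The median log2 fold changes over the 8 markers in iWAT, eWAT and BAT were -1.39, -0.52 and -1.30. By edgeR 3 of 8 were called lower in BAT (Adgre1, Cd68 and Lyz2), beside 1.24% of all genes called. None was called in iWAT or eWAT, beside 0.0275% and 0.746%. DESeq2 called 3, 2 and 6 of the 8 lower, beside 4.72%, 3.99% and 3.67% of all genes called. Mertk and Cd163, which belong to the same 8, gave 0.32 and 0.52 in BAT with overlapping groups. Of 6 dendritic cell markers, the 5 other than Itgax, which macrophages of fat also make, together read 19.8 to 26.3 CPM in WT and 20.5 to 28.5 CPM in C6KO libraries of iWAT, 22 to 73.7 and 21.4 to 32.7 CPM in eWAT, and 18 to 18.9 and 18.8 to 21.6 CPM in BAT. Of the 3 of them tested in BAT, Itgax was called lower in BAT (-3.17, adjusted p = 0.00388), while Zbtb46 and Clec9a gave 0.34 and -0.02. In iWAT, 5 of the 6 gave estimates below 0, namely Itgax (-1.96), Xcr1 (-0.76), Flt3 (-0.60), Clec9a (-0.23) and Siglech (-0.14). Zbtb46 gave 0.52 there, and all but Itgax had overlapping groups. In eWAT, 5 of 6 gave estimates below 0, with a median of -0.73. The 4 adipocyte markers summed to 3906 to 4074 CPM in WT and 5677 to 7395 CPM in C6KO libraries of eWAT, where 2 rose by edgeR (Lipe 0.72 and Plin1 0.62) and all 4 by DESeq2, which also called 1 higher in BAT (Cidec). In iWAT they summed to 9863 to 10394 CPM in WT and 12469 to 15148 CPM in C6KO libraries. All 4 lay above WT without overlap there, with none called by edgeR or DESeq2. The share of all genes lying above WT in this way was not computed. In BAT the sums overlapped, at 5368 to 6418 and 6192 to 7605 CPM. The 4 endothelial markers summed to 493 to 562 CPM in WT and 700 to 833 CPM in C6KO libraries of eWAT, with none called by edgeR and 1 called higher by DESeq2 (Kdr). No marker of B cells, T cells, neutrophils, fibroblasts and progenitors or skeletal muscle was called by edgeR in any depot, and DESeq2 called 2 of them lower, Cd8a in eWAT and Dpt in BAT. In these lists, Ly6g (neutrophils) was at 0 throughout and Ckm (muscle) at 0 in iWAT. The mesothelial marker Lrrn4 rose in BAT from few counts (2.41), and by DESeq2 in iWAT too. The part of these cell types in the receptor values was not tested.

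**Figure D4:**
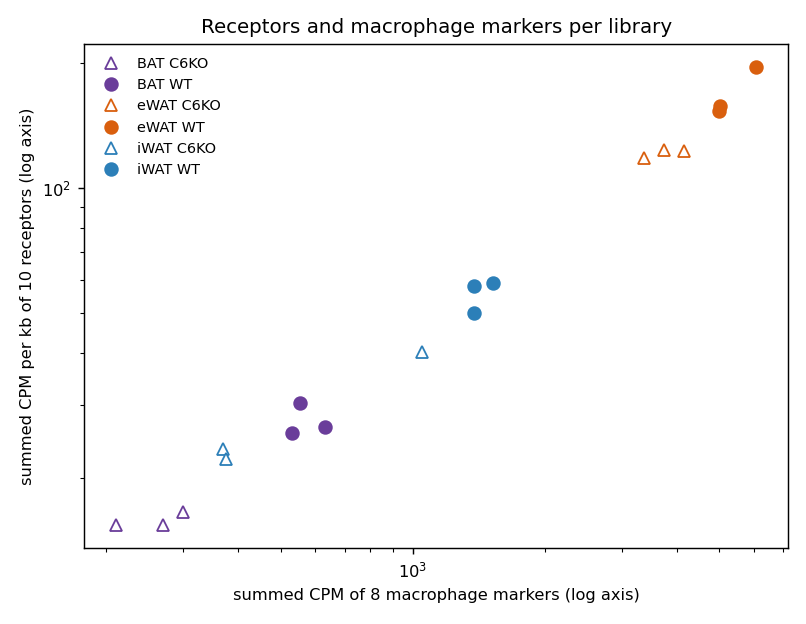
Summed CPM per kilobase of the 10 receptors against the summed CPM of 8 macrophage markers, both on log axes, 1 point per library, filled for WT and open for C6KO. Receptors were scaled over all 18 libraries and markers within each depot. The open triangle of iWAT C6KO-3, at 1048 CPM of markers and 40.4 CPM per kilobase of receptors, lies between the other C6KO and the WT libraries of iWAT.

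The partners that present ligands to the receptors were examined next. Lbp, the lipopolysaccharide-binding protein, had 191, 562 and 252 counts in WT and 88, 70 and 83 counts in C6KO libraries of BAT, and fell (log2 fold change -2.04 ± 0.34, edgeR adjusted p = 0.0298). Of the 6 genes of this list it was the only one edgeR called in any depot, whereas DESeq2 called Ly86 lower in iWAT, Cd180 in eWAT and Lbp, Cd180 and Ly86 in BAT. Cd180, a Toll-like homolog of B cells and myeloid cells, lay lower without overlap in iWAT, eWAT and BAT (-1.77, -0.69 and -2.08, adjusted p = 0.279, 0.0792 and 0.0824). Its partner Ly86 gave -1.54, -1.25 and -1.49 (adjusted p = 0.204, 0.144 and 0.0783), also without overlap. Cd14, which hands lipopolysaccharide to Tlr4, gave -0.66, -0.59 and -0.20, and Ly96, the MD-2 subunit of the Tlr4 complex, gave -0.08, -0.48 and -0.51, none called.

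Endosomal receptors need the chaperone Unc93b1 for transport and proteases for the maturation of their ectodomains. Ctss, the cathepsin S protease, read 1023, 1175 and 913 counts in WT and 207, 192 and 284 counts in C6KO libraries of BAT, and fell (-2.27 ± 0.24, adjusted p = 0.00432). Lgmn, an asparaginyl endopeptidase, also fell in BAT (-0.87 ± 0.16, adjusted p = 0.0340), and these 2 of 10 genes were the edgeR calls of the list. DESeq2 called Unc93b1 and Pld3 lower in iWAT, Ctss in eWAT and Ctss, Lgmn, Unc93b1 and Pld4 in BAT. Unc93b1 gave -0.82, -0.45 and -0.61 in iWAT, eWAT and BAT (adjusted p = 0.159, 0.188 and 0.0991). Pld4, an endosomal nuclease, gave -0.97, -0.68 and -0.92 (adjusted p = 0.281, 0.394 and 0.118).

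Among the 6 TIR adaptors, 1 was called by edgeR (Pik3ap1, in BAT), and DESeq2 called the same gene there and Ticam2 in iWAT. Myd88, used by nearly all receptors of the family, gave -0.17, -0.21 and 0.15 in iWAT, eWAT and BAT, Ticam1 -0.28, 0.00 and 0.27, and Tirap -0.05, 0.08 and -0.33, none called. Pik3ap1, the adaptor BCAP that links the receptors to phosphoinositide 3-kinase, had 92, 187 and 128 counts in WT and 53, 72 and 39 counts in C6KO libraries of BAT, and fell (-1.36 ± 0.26, adjusted p = 0.0468). It gave -1.59 in iWAT and -0.45 in eWAT (adjusted p = 0.237 and 0.0597), without overlap in either. Ticam2, which joins Tlr4 to Ticam1, gave -1.42, -0.49 and -1.66 (adjusted p = 0.172, 0.113 and 0.139), without overlap in all 3 depots. Sarm1, a TIR protein that cleaves NAD, gave 0.19, 0.69 and 0.43, none called.

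The 20 kinases and ubiquitin ligases had medians near 0 in iWAT, eWAT and BAT (0.06, -0.09 and 0.00), and none was called by edgeR or DESeq2. Irak4, the kinase nearest to Myd88, gave -0.10, -0.33 and 0.21, and Traf6, the ubiquitin ligase after it, 0.24, 0.03 and 0.34. The smallest p of the list was at Ikbke in iWAT and BAT (-0.69 and -1.60, adjusted p = 0.192 and 0.155), a kinase of the interferon branch, and at Irak2 in eWAT (0.56, adjusted p = 0.0571). At the end of the pathway, 9 transcription factors had medians of -0.46, -0.37 and -0.39 with none called by edgeR. DESeq2 called Irf5 and Irf8 lower in iWAT and Irf8 and Fos in BAT. The interferon regulatory factor Irf5 gave -1.45, -0.39 and -0.84 in iWAT, eWAT and BAT, Irf8 -1.26, -0.56 and -1.23, and Irf7 -0.06, -0.48 and -0.41. Fos had the smallest p in eWAT (-0.37, adjusted p = 0.0882).

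Of 12 negative regulators, Il1rl1, the interleukin-33 receptor, was the only edgeR call, lower in eWAT (-0.91 ± 0.16, adjusted p = 0.0445), and gave -1.26 in iWAT (adjusted p = 0.121). DESeq2 called Il1rl1, Dusp1, Nrros and Atf3 lower in iWAT, Il1rl1 and Dusp1 in eWAT and Atf3 in BAT. Tnfaip3 (A20) had the smallest p in BAT (-0.89, adjusted p = 0.139). Irak3, an inhibitory kinase homolog, gave 0.12, 0.02 and 0.13. Among 22 target genes that the receptors can induce, 15, 19 and 10 passed the filter on low counts in iWAT, eWAT and BAT, with medians of -0.71, -0.51 and -1.09. Ccl2, a monocyte chemokine, was the only edgeR call, and it rose in eWAT, from 355, 347 and 314 counts in WT to 500, 599 and 595 counts in C6KO libraries (0.73 ± 0.12, adjusted p = 0.0432). In BAT it read 125, 48 and 51 against 18, 8 and 12 counts (-2.70 ± 0.65, adjusted p = 0.108), and in iWAT the groups overlapped (-0.22). DESeq2 called Cxcl2 and Ccl3 lower in iWAT, Il10, Ccl3 and Nfkbiz lower and Ccl2 higher in eWAT, and Ccl2, Saa3 and Cd86 lower in BAT. Cxcl2 in iWAT (-3.28, adjusted p = 0.154) and Saa3 in BAT (-2.55, adjusted p = 0.0727) had the smallest p of the list there. Tnf gave -0.54 in iWAT and -0.47 in eWAT without passing, Il1rn -1.64, 0.29 and 0.37, and Il1b -0.22 in eWAT. Il6 had at most 6 counts in any library, so its difference was not detectable at this depth, and Il1b in iWAT and BAT and Tnf in BAT were likewise below the filter.

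**Figure D5:**
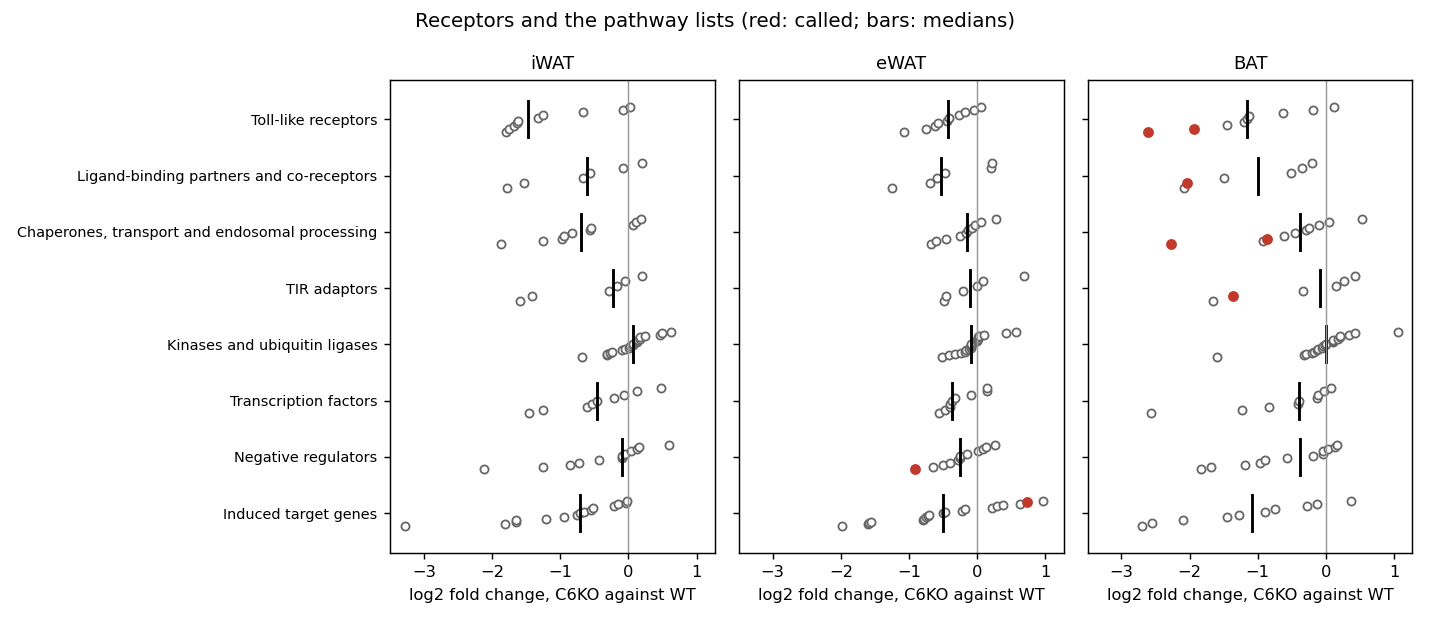
Log2 fold change of C6KO against WT for each tested gene of the receptor family and of 7 pathway lists in iWAT, eWAT and BAT, with genes called by edgeR in red and black bars at the medians. The receptor medians (-1.47, -0.42 and -1.16) and the kinase medians (0.06, -0.09 and 0.00) mark lists that lie left of 0 and around it.

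The genes whose profile over the 18 libraries lay closest to each receptor were ranked by the root mean square difference of centered log2 CPM among 14208 genes. These libraries share depot, genotype and the libraries that stood apart. Closest to Tlr13 were Hpgds (0.21), C3ar1 (0.22) and Adgre1 (0.28), against a median of 2.26 over all genes, and to Tlr8 Mpeg1 (0.26), Adgre1 (0.28) and Nckap1l (0.34), against 1.98. Adgre1 encodes the macrophage antigen F4/80. Tlr7 lay nearest to Sirpa (0.25), Ms4a6c (0.29) and March1 (0.32), and Tlr2 nearest to the mannose receptor Mrc1 (0.28), Osbpl3 (0.28) and Clec4a3 (0.33). For Tlr1 they were Lilr4b (0.41), Dpep2 (0.47) and Lilrb4a (0.48), for Tlr6 Pstpip1 (0.32), Myo1g (0.33) and Tnfaip2 (0.36), and for Tlr9 Sla (0.40), Gpr65 (0.41) and Ptpn6 (0.48). The remaining neighbors were Anapc2 (0.14), Vps16 (0.16) and Mtmr6 (0.16) for Tlr3, Dcaf4 (0.24), Trak1 (0.26) and Zhx3 (0.26) for Tlr5, and Vwa5a (0.15), Arhgap18 (0.18) and Zeb2 (0.19) for Tlr4.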

How the data were processed

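Poly(A) RNA of 18 adipose libraries was sequenced. Per the labels and the methods of the study, the authors aligned reads to mm10 with STAR, counted exon reads per gene with HOMER and deposited raw counts, keeping 1 transcript per gene. Versions are not given in the sources used here. Every value column was matched to a sample (0 without one), and groups came from the sample titles. Counts were fitted with edgeR 4.0.16 (R 4.3.3, limma 3.58.1): filterByExpr, TMM scaling, robust quasi-likelihood test, 3 against 3 libraries per depot, Benjamini-Hochberg over all genes. A call required an adjusted p under 0.05 and a 1.5-fold difference (interactions: adjusted p only). Depot contrasts used 1 fit of 18 libraries with no term for the animal. DESeq2 1.42.0 was an alternative. The study itself tested for differential expression with DESeq2, run through HOMER, at the same thresholds of adjusted p and fold. All p-values are two-sided and measure the spread between these libraries. Scripts were tested on simulated data with known answers.

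The 10 receptors, 7 pathway lists and 10 marker lists were chosen with earlier results of these data known. Named were all receptors, set pathway genes, every list gene called, the gene of smallest p per list and depot, and the 3 genes nearest to each receptor. Alternatives were DESeq2, other scaling, other count filters, a replicate block, 1 fit of 18 libraries, and each library left out.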

Additional observations from a re-analysis of the deposited data

How the results depend on the processing

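Counts of receptors called lower by genotype depended on the test and the libraries. The calls over all genes are given in parentheses. In iWAT the count of 0 (4) became 3 (674) with DESeq2, 3 (366) in 1 fit of 18 libraries and 1 (62) with a replicate block. It ranged from 0 to 7 when each library was left out, with 7 (1278) without C6KO-3. With any other iWAT library left out, 3 of all genes were called lower. In eWAT 0 (111) became 1 (618) with DESeq2 and 1 (414) with the block, Tlr1 in both. It stayed at 0 with any library left out, where 2 to 93 of all genes were called lower. In BAT 2 (168) became 5 (545) with DESeq2, 4 (525) in 1 fit of 18 libraries and 1 (177) with at least 10 counts in every library, where Tlr1 was not tested. The BAT count ranged from 0 to 2 without 1 library, where 24 to 145 of all genes were called lower. The genotype effect between depots gave 1 (171) with DESeq2 for BAT against iWAT. Without 1 library that contrast gave 0 to 1, with 1 (112) without iWAT C6KO-3. For eWAT against iWAT the range was 0 to 3, with 3 (241) without the same library. BAT against eWAT gave 0 (85) with all libraries and 0 without any 1 of them. Between WT depots, the count was 6 (6147) for BAT against iWAT, 9 (4076) for eWAT against iWAT and 9 (7708) for BAT against eWAT. Without 1 library it ranged from 3 to 6 for BAT against iWAT and from 8 to 9 for each of the other 2 contrasts. The cause of these shifts was not tested, apart from fewer libraries or genes in the fit.

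The sign of small estimates turned: Tlr4 in iWAT became -0.048 with scaling by total counts, and without 1 library Tlr4 in iWAT ranged from -0.065 to 0.085, Tlr3 in eWAT from -0.15 to 0.14, Tlr5 in eWAT from -0.10 to 0.19 and in BAT from -0.046 to 0.28, the Tlr5 effect of BAT against eWAT from -0.12 to 0.23 and the WT level of Tlr5 in BAT against iWAT from -0.28 to 0.037. Replicate numbers were shared between groups, and the labels do not say whether they pair libraries. Correlations of the deviations of WT and C6KO libraries of 1 number were 0.022 to 0.037 in iWAT, against a mean of -0.015 for unlike numbers. They were 0.16, -0.10 and 0.16 in eWAT (mean for unlike numbers -0.036), and in BAT -0.30, -0.60 and -0.24 (0.18). Between depots they ranged from -0.066 to 0.22, and the means for unlike numbers from -0.059 to 0.00085. With 3 libraries per group, these values cannot decide whether the depots shared animals. The block is therefore given as an alternative only, and it gave counts of 1, 1 and 2 in iWAT, eWAT and BAT. Depth limits Tlr6 and Tlr9 in BAT and the cytokines Il6, Il1b and Tnf.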

Other observations

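Tlr11 and Tlr12, the profilin receptors of dendritic cells, were outside the 10 genes examined. In eWAT, Tlr11 had 22, 269 and 59 counts in WT and 20, 26 and 40 counts in C6KO libraries, and Tlr12 had 8, 163 and 30 against 3, 9 and 45 counts. The highest library of both was WT-2. The same library held the most Tlr9 (752 counts, against 134 to 377 in the other eWAT libraries), Clec9a (721 against 103 to 202) and Xcr1 (235 against 22 to 86), which mark cross-presenting dendritic cells. Of the other dendritic cell markers, Flt3 was also highest there (205 counts). Zbtb46 (147), Siglech (42) and Itgax (7562) were each higher in another eWAT library. The genes named here were picked after their values were seen, and no test was made.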
